A study of Homo sapiens with 5 samples.

Results

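The RGS (regulator of G-protein signalling) genes studied here are RGS16, RGS1, RGS2, RGS3, RGS13 and RGS18 of the R4 subfamily, RGS10, RGS12 and RGS14 of the R12 subfamily, and RGS19 of the RZ subfamily. They are 10 of the 18417 genes measured. A gene qualified when the platform annotation gave a probe set its symbol alone, and each of the 10 had 1 such probe set, so the rule of keeping the highest mean over the arrays left nothing to choose. The family was chosen by the difference of RGS16 between the groups, which was already known, and because RGS16 is a reported target of MondoA and of its paralogue ChREBP. All differences between the groups for these 10 genes are therefore given as a description, with their errors and no test. The cells were Nalm6, an established human line of B-cell precursor leukaemia, kept at 200 mg/dl glucose and 20% fetal serum, and their RNA was read on Affymetrix whole-transcript arrays. The control group held 2 clones with a nonsense shRNA (a short hairpin RNA without a target). The other group held 3 clones whose shRNA targets MondoA, and each clone gave 1 array. Every clone carried a hairpin, and no untransduced parental cells are among these arrays. How the clones were derived is not given in the labels used here, so errors measure only the spread between these clones.

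G-protein-coupled receptors signal through a G alpha subunit that is active while it holds GTP. RGS proteins bind the active alpha subunit and speed up its GTP hydrolysis, which shortens the signal. R4 proteins are small and consist of little beside the RGS domain, whereas RGS12 and RGS14 of the R12 subfamily are scaffolds with further domains. In B lymphocytes, RGS proteins are known for limiting the response to chemokines, and RGS1 and RGS13 have been studied most there. RGS16 is also known as a gene induced by glucose through the carbohydrate response element, a pair of E-boxes 5 bases apart to which MondoA or ChREBP binds with MLX.

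The promoter of RGS16 is shown because that element is the reported link between this gene and MondoA. It spans the 250 bases before the annotated start, chr1:182604390-182604639 on the minus strand of GRCh38.p14, from RefSeq, and capitals mark the match to the element nearest to its letters.

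RGS16: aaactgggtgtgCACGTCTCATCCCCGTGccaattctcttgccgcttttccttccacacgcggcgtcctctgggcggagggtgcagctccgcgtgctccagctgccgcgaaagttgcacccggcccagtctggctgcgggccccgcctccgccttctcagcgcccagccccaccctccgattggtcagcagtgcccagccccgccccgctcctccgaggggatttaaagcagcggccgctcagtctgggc

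The element was searched as 2 copies of the E-box CACGTG with any 5 bases between them, and the E-box was also searched alone. Both read the same on either strand. No E-box was found in the windows of any of the 10 RGS genes (all 10 had a window), against 6.34% of the 35116 RefSeq windows of this length. The capitals in RGS16 match 10 of the 12 fixed letters. Counted from the first base of the element, the 2 substitutions are G6C and A13C. A match with at most 2 mismatches occurred in 0.849% of all windows, and RGS16 was the 1 RGS gene of the 10 to have it. The limit of 2 mismatches was chosen after the sequence was seen. The nearest matches in the same window of TXNIP and ARRDC4, alpha-arrestin genes known as MondoA targets, and of RGS8, the RGS gene next to RGS16 on the chromosome, are set beside it here, with the letters that equal the element in capitals.

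RGS16: CACGTctcatcCcCGTG
TXNIP: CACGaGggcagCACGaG
ARRDC4: aACGgcctgtgCACGTG
RGS8: CAacTGagtcaCtCaaG

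These sites begin 238, 88, 221 and 234 bases before the start of RGS16, TXNIP, ARRDC4 and RGS8. TXNIP has 2 mismatches (T5A and T16A), ARRDC4 has 3 and RGS8 has 5. At most 3 mismatches occurred in 7.76% of all windows. A nearest match with 5 mismatches was also found for RGS1, RGS2, RGS10, RGS14 and RGS18. A match is a description of letters, and binding was not measured.

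All expression values are RMA values on the log2 scale, and the error given with a mean is the SD (n = 2 for control, n = 3 for MondoA shRNA). MLXIP, which encodes MondoA, read 6.42 and 6.42 in the control arrays and 6.42, 6.47 and 6.29 in the arrays labelled MondoA shRNA, a difference of -0.03 ± 0.06 (SE). This rests on 1 probe set, for which RMA returned the same value in 3 of 5 arrays. Such ties give no measure of how closely the clones match. As a lower target RNA was not detected, the directions below refer to the label of the clones. The 10 measured markers of the B-cell precursor, PAX5, VPREB1 and IGLL1 among them, all had a mean above the median gene level of 4.15, from 4.85 to 10.4. Their differences between the groups ran from -1.19 to 1.27. Every MondoA shRNA array lay above the controls for 3 (4.85% of all genes) and below for 3 (5.18% of all genes). At an unadjusted p under 0.05 in limma 3 of them were higher and 1 was lower, against 1.55% and 2.18% of all genes. Of these markers 0 passed the adjusted threshold, and their part in the RGS values was not tested. Of the 7 T and NK markers, 5 lay below the median gene, CD3D, CD3E and CD3G among them at means of 2.49 to 2.80, and CD7 at 6.11 and NKG7 at 6.46 lay above it. The 5 megakaryocyte markers had means between 2.85 and 3.37, the erythroid gene HBB had 2.88 and KLF1 had 4.66. Of the 8 myeloid markers, 7 lay below the median gene, CD14 at 3.17 among them, and ELANE at 5.51 lay above it. Pairs of arrays correlated at 0.990 to 0.995 over all probe sets, a description of points that are not independent. The 2 controls gave the highest value, and MondoA shRNA clones 1 and 2 gave the lowest. Control clone 1 and MondoA shRNA clone 3 also correlated at 0.995. In a limma fit over all 18417 genes 0 passed an adjusted p of 0.05 (0.0%), and 687 (3.73%) stood at an unadjusted p under 0.05, 1.55% higher and 2.18% lower.

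RGS16 set the groups furthest apart among the 10. It read 8.21 and 7.94 in control clones 1 and 2, and 6.62, 6.73 and 7.16 in MondoA shRNA clones 1, 2 and 3. Both control clones lay above all 3 MondoA shRNA clones, and 0.78 log2 units separated the lower control from the highest MondoA shRNA clone. The means were 8.07 ± 0.19 and 6.84 ± 0.28, a difference of -1.24 ± 0.21 (SE), or a level 2.36-fold higher in control. With each array left out in turn, the difference lay between -1.40 and -1.10. By size, RGS16 ranked 10 among all genes lower in the MondoA shRNA clones, and 24 genes (0.13%) had a difference of -1 or lower. These are bulk samples, in which fewer cells expressing a gene and less RNA per cell cannot be told apart.

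**Figure D1:**
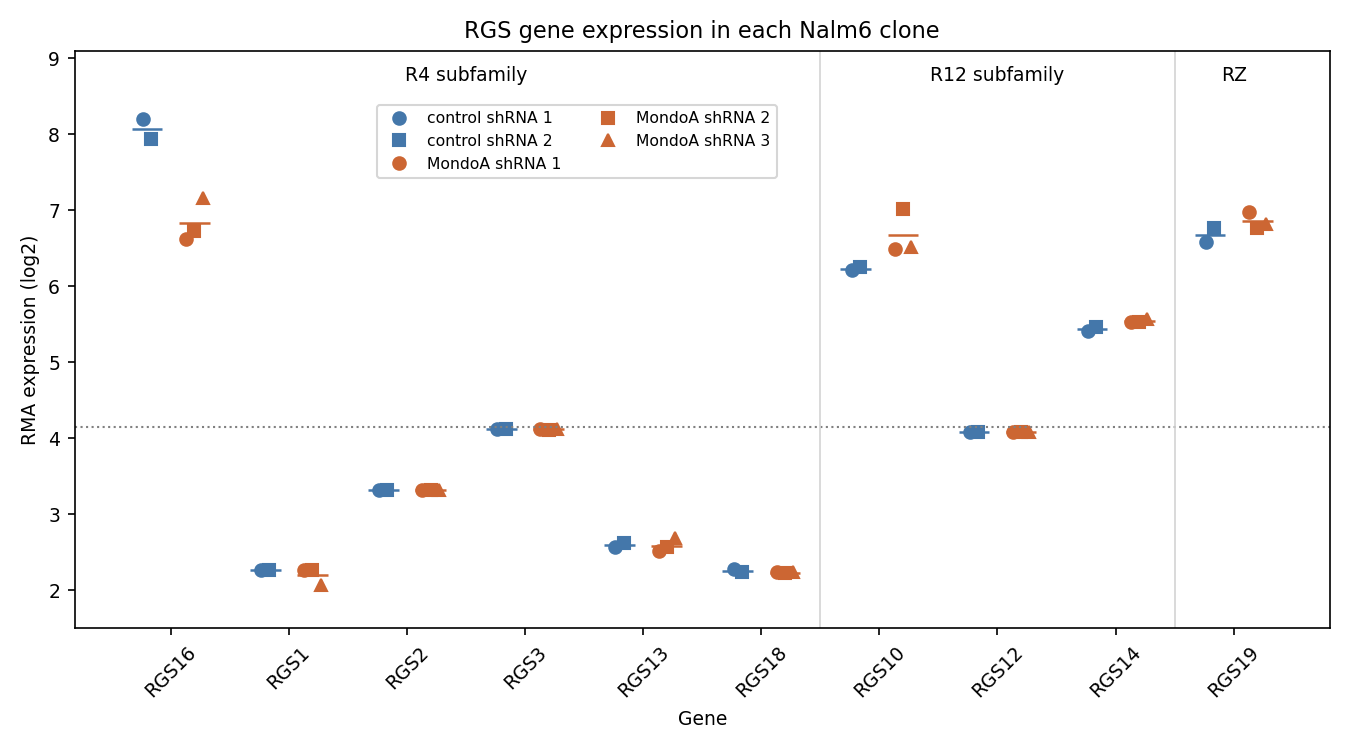
RMA expression (log2, vertical axis) of the 10 RGS genes in each clone, with control shRNA clones in blue, MondoA shRNA clones in orange, marker shape for the clone number, short bars for group means and a dotted line at the median gene level of 4.15. RGS16 is the gene whose control clones (7.94 and 8.21) sit clearly above its MondoA shRNA clones (6.62 to 7.16), and 6 of the genes lie below the dotted line with almost no spread.

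The other R4 genes among the 10 varied by at most 0.19 log2 units over the 5 arrays. RGS1, which restrains chemokine-driven migration of B cells, read 2.26 in both control clones and in MondoA shRNA clones 1 and 2, and 2.07 in clone 3. RGS13, a germinal-centre B-cell member, read 2.57 and 2.62 in control and 2.51, 2.57 and 2.69 in MondoA shRNA clones, so that the MondoA shRNA values enclosed the control values. RGS18, known from megakaryocytes and platelets, read 2.28 and 2.24 in control and 2.24, 2.23 and 2.24 in MondoA shRNA clones. Their differences were -0.06 ± 0.08, -0.01 ± 0.06 and -0.02 ± 0.02 (SE), and in each the groups overlapped.

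RGS2, which acts preferentially on the G alpha subunits of the Gq class, read 3.32 in all 5 arrays. RGS3, which has long and short isoforms, read 4.12 in both control clones and 4.12, 4.11 and 4.12 in MondoA shRNA clones. Both lie below the median gene level, as do RGS1, RGS13, RGS18 and RGS12. Detection above background was not assessed, so a low value here does not say whether the gene is expressed. RMA also returned the same value in at least 3 of 5 arrays for 5 of the 10 RGS genes (54.0% of all genes), and in all 5 arrays for RGS2 and RGS12 (9.7% of all genes). A difference of 0.00 in these genes is thus a property of the summarised values and gives no measure of how closely the clones match.

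In the R12 subfamily, RGS10 and RGS14 read higher in the MondoA shRNA clones, the opposite side from RGS16. RGS10, a small member abundant in immune cells and microglia, read 6.21 and 6.25 in control and 6.50, 7.02 and 6.52 in MondoA shRNA clones. Every MondoA shRNA clone lay above both control clones, with clone 2 highest, and the closest values of the groups were 0.25 apart. Its means were 6.23 ± 0.02 and 6.68 ± 0.30, a difference of 0.45 ± 0.20 (SE). Without MondoA shRNA clone 2 the difference was 0.28.

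RGS14, a scaffold that binds both G alpha and Ras-like GTPases, read 5.42 and 5.46 in control and 5.53, 5.53 and 5.57 in MondoA shRNA clones. The groups did not overlap, but the gap was only 0.06, and the difference was 0.10 ± 0.02 (SE). RGS12, the largest scaffold of the subfamily, read 4.08 in all arrays. RGS19, an RZ member first described as GAIP, read 6.58 and 6.77 in control and 6.98, 6.77 and 6.83 in MondoA shRNA clones, a difference of 0.18 ± 0.10 (SE), which was 0.09 without control clone 1 and 0.28 without control clone 2. Control clone 2 and MondoA shRNA clone 2 had the same RGS19 value, so these groups touched.

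Counted over the family, 1 of 10 genes (RGS16) had every MondoA shRNA array below every control array, where 5.18% of all genes did, and 2 of 10 (RGS10 and RGS14) had every MondoA shRNA array above, where 4.85% of all genes did. As the family was proposed from this contrast, nothing is read from those shares. The median difference over the 10 was 0.00, equal to that of all genes. Among the 4 genes with levels above the median gene, control clone 1 was the highest array for RGS16 and the lowest for RGS10, RGS14 and RGS19. Of the MondoA shRNA clones, clone 3 was highest for RGS16 and RGS14, clone 2 for RGS10 and clone 1 for RGS19.

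A further 20 genes with an RGS domain were taken as a list, and all 20 were measured. None passed the adjusted threshold in limma. At an unadjusted p under 0.05 stood 1 higher and 2 lower, against 1.55% and 2.18% of all genes. Their median difference was 0.01. The sorting nexin SNX13, an endosomal protein with an RGS domain, read 6.28 and 5.88 in control and 5.26, 5.54 and 5.61 in MondoA shRNA clones, a difference of -0.61 (adjusted p = 0.833 by limma). SNX25, of the same sorting nexin group, read 4.73 and 4.88 against 5.35, 5.36 and 5.05, a difference of 0.45 (adjusted p = 0.833 by limma). These 2 were named as the list's largest fall and largest rise with groups apart. Of the 20 genes, 2 had every MondoA shRNA array above the control arrays and 2 had every one below, against 4.85% and 5.18% of all genes. SNX14 had the highest mean of the list and read 6.30 and 6.08 against 6.18, 6.59 and 6.19, with overlapping groups and a difference of 0.13, which was -0.0028 without MondoA shRNA clone 2.

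**Figure D2:**
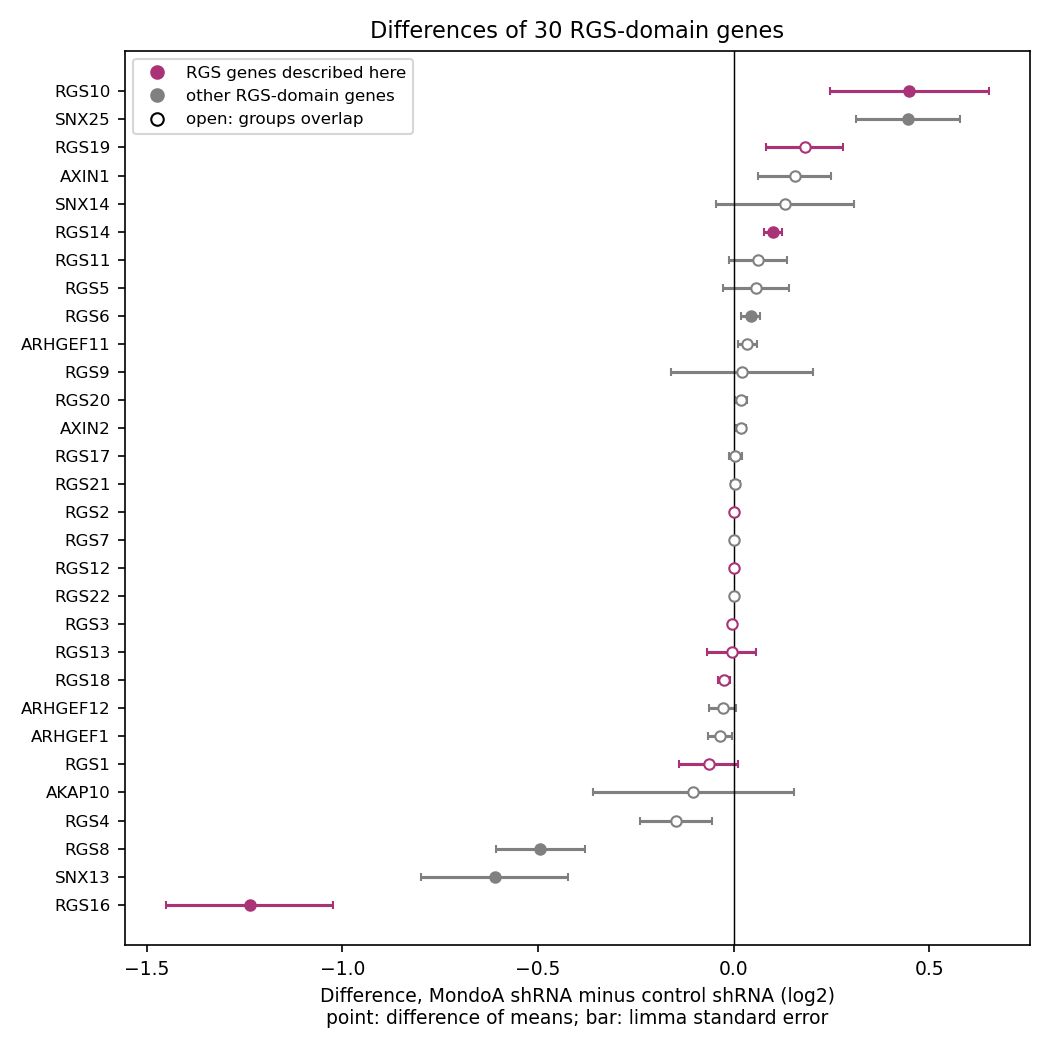
Difference between group means (MondoA shRNA minus control shRNA, log2, horizontal axis) for the 10 RGS genes in purple and 20 other genes with an RGS domain in grey, with bars for the limma standard error and open points where the groups overlap. RGS16 at -1.24 lies furthest left, followed by SNX13 at -0.61 and RGS8 at -0.49, and RGS10 at 0.45 lies furthest right.

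RGS8, an R4 gene known mainly from the nervous system, is next to RGS16 among the measured genes of chromosome 1 in RefSeq order and was singled out after its values were seen. It read 3.80 and 4.08 in control and 3.35, 3.53 and 3.45 in MondoA shRNA clones. All 3 MondoA shRNA clones lay below both controls, with a difference of -0.49 ± 0.11 (SE, adjusted p = 0.833 by limma), although every value lay under the median gene level. NPL, an enzyme gene of sialic acid breakdown and the next measured gene beyond RGS8, differed by -0.12 ± 0.06 (SE, adjusted p = 0.833 by limma), with non-overlapping groups only 0.03 apart and a range of -0.18 to -0.07 with 1 array left out. On the other side, RGSL1 read 2.55 in all 5 arrays. The 1866 measured genes of chromosome 1 had a median difference of 0.00. Elsewhere on chromosome 1, RGS18, RGS21, RGS1, RGS13 and RGS2 follow each other in that order among measured genes, and the largest difference within that group was -0.06, in RGS1. RGS4 and RGS5, R4 genes of the same chromosome outside that group, differed by -0.15 and 0.06, with overlapping groups.

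The 5 genes whose profile over the 5 arrays lay nearest to that of RGS16 were NPC1, PDGFRA, AKAP9, TSC22D3 and MYO5C. Nearness was the root mean square distance between the values after each gene was centred on its own mean, and it lay between 0.09 and 0.20 log2 units, while RGS16 itself varied by 0.64 about its mean. NPC1, the lysosomal cholesterol transporter, read 7.49 and 7.24 in control and 5.96, 6.25 and 6.56 in MondoA shRNA clones. As with RGS16, control clone 1 was highest and MondoA shRNA clone 3 was nearest to the controls. PDGFRA, a receptor tyrosine kinase gene, read 9.33 and 9.17 against 7.60, 8.06 and 8.07. NPC1 lies on chromosome 18, whose 264 measured genes had a median difference of -0.08, and the part of that shift in its value was not tested. The differences of the other 3 were -0.996 for AKAP9, a kinase anchoring protein gene, -0.98 for TSC22D3, a glucocorticoid-induced gene, and -0.87 for MYO5C, a myosin gene. Likeness over 5 arrays describes these profiles and no more.

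**Figure D3:**
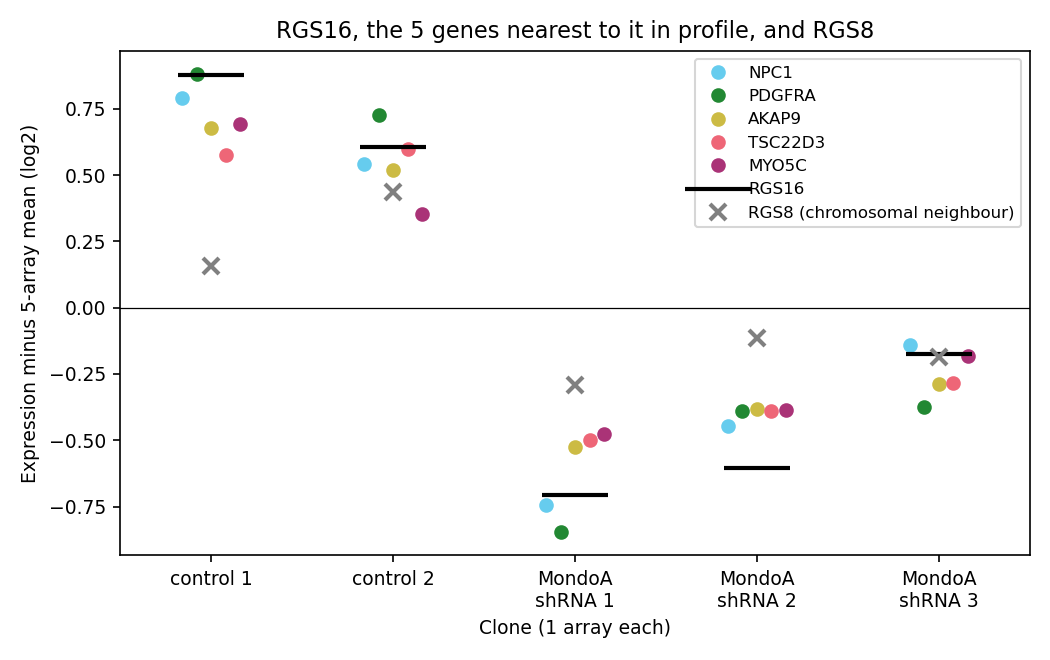
Expression minus the mean over 5 arrays (log2, vertical axis) in each clone for RGS16 (black bars), the 5 genes nearest to it in profile (coloured points, set side by side for legibility) and its chromosomal neighbour RGS8 (crosses). RGS16 and the 5 genes lie above 0 in both control clones and below 0 in all 3 MondoA shRNA clones, and RGS8 lies on the same side in each clone.

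RGS proteins act on the G alpha subunits. Of the 16 G alpha genes 15 were measured, none passed the adjusted threshold in limma, and the list median was -0.01. At an unadjusted p under 0.05, 1 was higher and 0 were lower, against 1.55% and 2.18% of all genes. GNAI2, the main Gi alpha subunit of lymphocytes and a substrate of most R4 proteins, read 9.18 and 9.20 in control and 9.28, 9.34 and 9.26 in MondoA shRNA clones, a difference of 0.10 (adjusted p = 0.833 by limma). This gene has 2 probe sets that disagree in size, and their mean gave 0.31. GNAI1, another Gi alpha subunit, read 6.86 and 6.33 against 5.87, 6.30 and 5.80, a difference of -0.60 with a gap of only 0.03 between the groups (adjusted p = 0.833 by limma). It was -0.34 without control clone 1 and -0.87 without control clone 2. GNAI2 and GNAI1 were named as the list's largest rise and largest fall with groups apart. Their opposite signs follow from that choice. The values of GNAI1 spread far more than those of GNAI2.

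Of the 17 genes for G beta and gamma subunits 16 were measured, with a median difference of 0.03. In limma 0 passed the adjusted threshold, and 0 stood at an unadjusted p under 0.05 (3.73% of all genes). GNB1, the beta subunit with the highest mean, read 10.57 and 10.47 in control and 10.50, 10.51 and 10.53 in MondoA shRNA clones, a difference of 0.00. Its sign turned when the arrays were centred on their medians. GNG7, a gamma subunit, read 7.16 and 6.91 against 7.42, 8.18 and 7.58, a difference of 0.69 (adjusted p = 0.833 by limma). Clone 2 was highest, as for RGS10.

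Receptors that signal through these subunits in lymphoid cells were represented by 26 of 29 listed genes, with a median difference of 0.00. In limma 0 passed the adjusted threshold. At an unadjusted p under 0.05 stood 0 higher and 1 lower, against 1.55% and 2.18% of all genes. For 2 of the 26, every MondoA shRNA array lay above the controls (4.85% of all genes). For 4, every one lay below (5.18% of all genes). CXCR4, the chemokine receptor that retains B precursors in bone marrow, had the highest mean and read 10.44 and 10.26 in control and 10.01, 10.17 and 9.88 in MondoA shRNA clones. Its groups did not overlap, and the difference was -0.33 ± 0.12 (SE, adjusted p = 0.833 by limma). LPAR6, a lysophosphatidic acid receptor, read 6.33 and 6.02 against 4.69, 5.44 and 5.43, a difference of -0.99 ± 0.31 (SE, adjusted p = 0.833 by limma). Without MondoA shRNA clone 1 its difference was -0.74. GPR18, a receptor abundant in lymphoid cells, read 5.02 and 4.73 against 5.22, 6.13 and 5.22, a difference of 0.65 (adjusted p = 0.833 by limma). Without MondoA shRNA clone 2 its difference was 0.34. LPAR6 and GPR18 were named as the list's largest fall and largest rise with groups apart.

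Downstream effectors, receptor kinases and other G-protein regulators were represented by 32 of 33 genes, with a median difference of 0.00. None passed the adjusted threshold in limma. An unadjusted p under 0.05 was seen for 3, of which 2 were higher and 1 was lower, against 1.55% and 2.18% of all genes. PRKACB, a catalytic subunit of the cAMP-dependent kinase, read 6.96 and 6.81 in control and 5.77, 6.13 and 6.15 in MondoA shRNA clones, a difference of -0.87 ± 0.15 (SE, adjusted p = 0.833 by limma). PIK3CG, the phosphoinositide kinase activated by G beta-gamma, read 7.28 and 7.15 against 7.65, 7.88 and 7.83, a difference of 0.57 ± 0.09 (SE, adjusted p = 0.833 by limma). GRK6, a receptor kinase of lymphocytes, read 8.25 and 8.26 against 8.41, 8.48 and 8.55, a difference of 0.23 ± 0.05 (SE, adjusted p = 0.833 by limma). PRKACB and PIK3CG were named as the largest fall and largest rise with groups apart. GRK6 was named by its mean, and its groups did not overlap. Of the 32 genes, 4 had every MondoA shRNA array above the control arrays and 3 had every one below, against 4.85% and 5.18% of all genes.

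**Figure D4:**
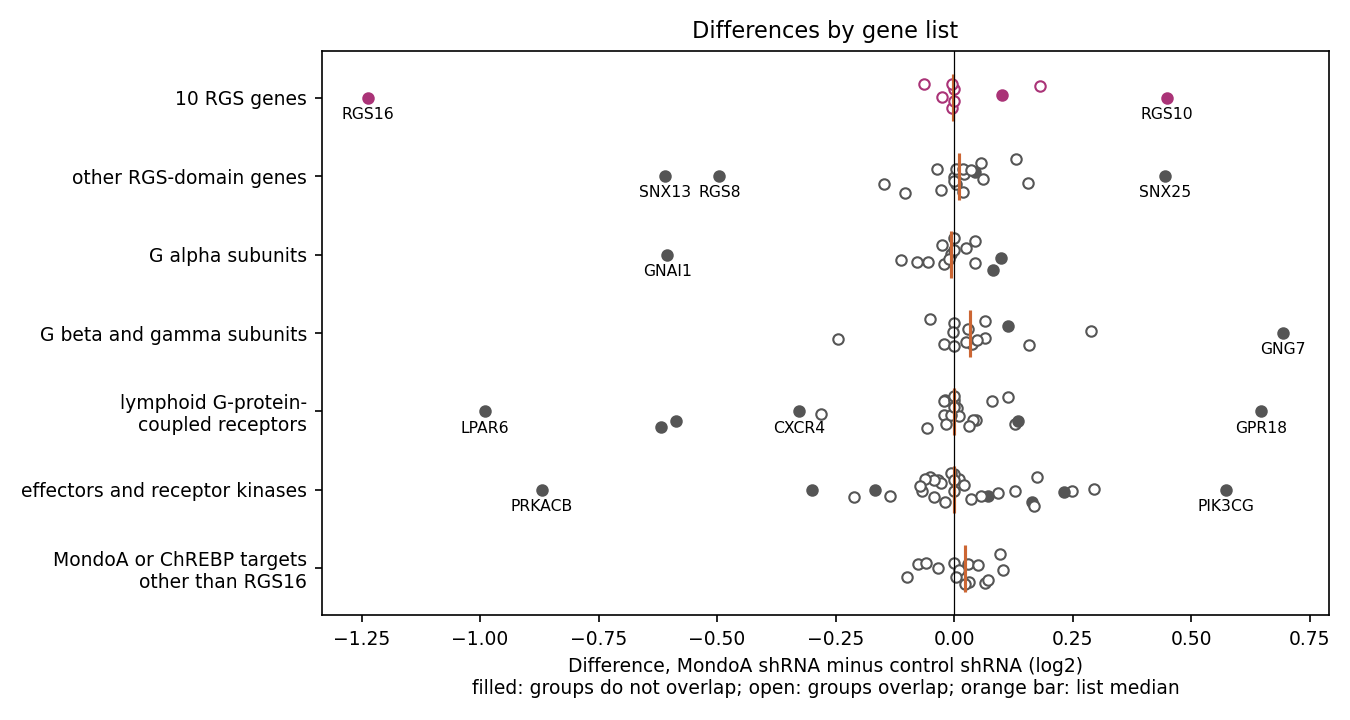
Difference between group means (MondoA shRNA minus control shRNA, log2, horizontal axis) for each measured gene of the RGS family and 6 further lists, with filled points where the groups do not overlap and a bar at the list median. RGS16 at -1.24 lies further from 0 than any gene of these lists, and the other MondoA or ChREBP targets lie between -0.10 and 0.10.

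The other reported targets of MondoA or ChREBP gave no difference of the size of RGS16. All 15 listed genes were measured, and their differences ran from -0.10 to 0.10 with a median of 0.02. The groups overlapped in all 15, as in most genes: 4.85% of all genes lay wholly above the controls and 5.18% wholly below. A difference of -1 or lower was seen in 0.13% of all genes. Of the 15, 7 lay below the median gene, and a flat value there does not say whether a gene is expressed. TXNIP read 9.03 and 8.89 in control and 8.91, 8.91 and 8.75 in MondoA shRNA clones. ARRDC4 read 4.60 and 4.69 against 4.51, 4.60 and 4.60. Their differences, -0.10 and -0.08 (adjusted p = 0.833 for both by limma), ran from -0.17 to -0.03 and from -0.12 to -0.03 with 1 array left out. RGS16 differed by -1.24, and whether the response element has a part in any of these differences was not tested. ACLY, the enzyme gene with the highest mean of the list, read 9.29 and 9.24 against 8.99, 9.64 and 9.45, a difference of 0.10. In that list 0 genes stood at an unadjusted p under 0.05 (3.73% of all genes).

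Over the 124 measured genes of the 6 lists beside the RGS family, 0 passed the adjusted threshold in limma (lowest adjusted p = 0.833), and 8 stood at an unadjusted p under 0.05, 4 higher and 4 lower. That is 6.45%, against 3.73% of all genes. In these lists 9.68% had every MondoA shRNA array above the control arrays and 8.06% had every one below, against 4.85% and 5.18% of all genes. As the lists were chosen with earlier results of these data known, nothing is read from these shares.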

How the data were processed

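Total RNA (200 ng per clone) of 5 Nalm6 clones was labelled for whole-transcript arrays, per the labels' protocols. The deposited values are log2 expression, summarised by the authors with RMA in Affymetrix Expression Console 1.1, per the submitters' processing notes. RMA subtracts background, equalises the arrays' distributions and combines probes by median polish. The log base is not stated and was taken as 2. The number of arrays limits the precision.

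Symbols came from the platform annotation. Of 33297 probe sets, 19460 had 1 symbol, 1754 several and 12083 none. The latter 2 kinds were left out, names were updated by Entrez number through RefSeq (GRCh38.p14, 19429 matched), and the probe set with the highest mean was kept per gene. The deposited values were not normalised again. limma 3.58.1 in R 4.3.3 gave differences, moderated standard errors and two-sided p-values, with Benjamini-Hochberg adjustment over 18417 genes and a threshold of 0.05. It was tested on simulated data.

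RGS genes and lists were chosen with earlier results of these data known. Named genes are MLXIP, the 10 RGS genes, the 5 nearest to RGS16, and per list the highest mean, the largest rise and the largest fall with groups apart. TXNIP, ARRDC4, RGS8 and the neighbours of RGS16 were added after their values were seen. Promoter windows were searched on both strands. Alternatives changed the normalisation, filter, probe-set rule, moderation, weights, block and arrays. Cell type markers not described singly were used by range.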

Additional observations from a re-analysis of the deposited data

How the results depend on the processing

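The RGS16 difference of -1.24 kept its direction and stayed within 1 SD in all 14 alternatives. For the filter, probe-set and moderation alternatives this was fixed in advance, as RGS16 has 1 probe set and they left its values unchanged. The difference was -1.03 with array weights, -1.26 with the arrays quantile normalised again and -1.40 with the replicate number as a block. With 1 array left out it ran from -1.40 to -1.10. The block gives the same difference as leaving out MondoA shRNA array 3, the only array with that number. As every MondoA shRNA array lay below the controls, leaving out an array could not turn the sign of the RGS16 difference. The block pairs clones that share a number and nothing else in the labels. The deviations of same-numbered arrays from their group means correlated at -0.29 and -0.23 over genes. With 2 controls, whose deviations are exact opposites, these values are not independent and cannot decide whether clones were paired. The labels state no pairing, so the numbers were not used as pairs. With 1 array left out, the RGS genes below the controls numbered 1 to 2 and those above 2 to 3. Leaving out an array can only keep or raise these counts, and the share of all genes was not counted for it. Without control array 2, RGS18 joined RGS16 below, at values of 2.23 to 2.28 that lie under the median gene level. Nothing is read from these counts.

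The limma count of 0 genes became 2 with quantile normalisation again, 2 with the arrays centred, 3 without moderation and 0 to 752 with 1 array left out (752 without control array 1, 454 without control array 2), where the spread of the 1 remaining control is borrowed from the MondoA shRNA clones. At an unadjusted p under 0.05 the 687 genes became 1095 with quantile normalisation, 1263 with array weights and 586 to 1987 with 1 array left out. Pathway genes past the adjusted threshold numbered 0 to 1. Of 334 values for 24 other named genes, 8 turned sign and 0 passed the adjusted threshold. MLXIP was 0.0268 with the replicate block and ran from -0.0649 to 0.0268 with 1 array left out. GNB1 was -0.0051 with the arrays centred and -0.0067 with the block. With 1 array left out GNB1 ran from -0.05 to 0.0517, SNX14 from -0.0028 to 0.2442 and ACLY from -0.0421 to 0.2795. The cause was not tested.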
